A study of Mus musculus with 12 samples.

Results

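MHC-II genes and their regulators were followed in primary mouse oligodendrocyte precursor cells (OPCs), the proliferating glial cells that give rise to the myelinating oligodendrocytes of the brain. The members were chosen by symbol, as 10 of the 45563 gene symbols used. They are Ciita, Cd74, H2-Aa, H2-Ab1, H2-Eb1, H2-DMa, H2-DMb1, Rfx5, Rfxank and Rfxap. RNA came from 12 libraries in 4 groups of 3. Wild type (WT) cells were C57BL/6 by the labels and C57BL/6J by the methods, and TNFR2-/- cells came, by the methods, from mice with a germline deletion of TNFR2, a receptor for tumor necrosis factor (TNF), which is thus not restricted to OPCs. All cultures came from cortices of pups (postnatal days 2 to 5 by the labels, 3 to 5 by the methods), were enriched with beads against PDGFRα and were kept for 3 days in growth factors. Stimulated (St) cultures then received TNF, interferon γ (IFNγ) and IL1β together, each at 25 ng/mL, for 3 h, and non-stimulated (NS) cultures received the vehicle. The comparisons ask how OPCs respond to this cocktail and how the response differs without TNFR2. No group received IFNγ alone, so the part of each cytokine cannot be told apart.

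MHC class II molecules carry peptides taken up from outside the cell to its surface, where CD4+ T cells read them. Each is a pair of an α and a β chain, which is held by the invariant chain CD74 during assembly and loaded with peptide with the help of the H2-DM pair. Their promoters hold an X box and a Y box that are bound by the RFX complex (RFX5, RFXANK and RFXAP), CREB and NF-Y, factors that most cells make. Transcription starts when CIITA, a coactivator that does not bind DNA itself, joins them. CIITA is therefore the switch of the system. Dendritic cells and B cells can make it without a stimulus, and in many other cells IFNγ turns it on through JAK1, JAK2 and IRF1.

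Values were FPKM, the fragments counted per kilobase and per 1000000 mapped reads, from which the number of reads per gene (counted read pairs) was recovered. The totals were between 26886878 and 30335265 reads per library. The length used for FPKM differed from the annotated exon length by factors that varied between genes, so FPKM are compared between libraries for 1 gene, and levels of different genes are compared as reads per kb of annotated exon per 1000000 reads. All 7 OPC markers examined (Pdgfra, Cspg4, Olig1, Olig2, Sox10, Lhfpl3 and Ptprz1) were present in every library, at 5188 reads or more. With stimulation Olig2 fell (log2 fold change -1.23 in WT and -1.16 in TNFR2-/- cells), as did Cspg4 (-0.66 and -0.55) and Olig1 (-0.36 and -0.43), while Sox10 rose in WT (0.61) and Pdgfra fell in TNFR2-/- cells (-0.56). The sum of 5 neuron markers went from between 96.3 and 124 reads per 1000000 reads in NS to between 429 and 544 in St libraries, with Tubb3 called higher and Snap25 lower in both genotypes and 3 not called. Tubb3 made up most of the St sum. It went from between 1155 and 2146 reads in NS to between 11535 and 14263 in St libraries. The part of these shifts in the responses described here was not tested. Reads on the TNFR2 gene, Tnfrsf1b, went against the labels. WT libraries held 12 to 24 of them without and 61 to 145 with stimulation, whereas the libraries labelled TNFR2-/- held 213 to 346 without and 282 to 356 with it. A count over the whole gene does not separate the deleted from the remaining part of the locus. The groups are named by their labels throughout, and each direction between genotypes rests on those labels.

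Before stimulation, the factors of the RFX complex were transcribed and the switch was close to off. The members fell into an order that spanned the range from 14.7 reads per exon kb per 1000000 reads for Rfxap to 0.0245 for Ciita in WT NS cells. Rfxap was followed by Rfxank (2.74), Rfx5 (2.41) and H2-DMa (1.61), then by H2-Ab1 (0.396), H2-Eb1 (0.181), H2-DMb1 (0.134), H2-Aa (0.0358), Cd74 (0.0346) and Ciita. Neighbours among the first 6 genes of this order had separate ranges over the 3 libraries, whereas from H2-Eb1 on each gene overlapped the next (H2-Eb1 with H2-DMb1, H2-DMb1 with H2-Aa, H2-Aa with Cd74, and Cd74 with Ciita). In TNFR2-/- NS cells, Rfxap was again first at 12.9 and the ranges of Rfxank, Rfx5 and H2-DMa overlapped in turn. After stimulation Ciita ranked 5th of 10 in both genotypes, at 0.705 in WT St and 1.49 in TNFR2-/- St cells, with Cd74 next at 0.673 and 0.839. The ranges of Ciita and Cd74 overlapped in WT St but not in TNFR2-/- St cells.

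**Figure D1:**
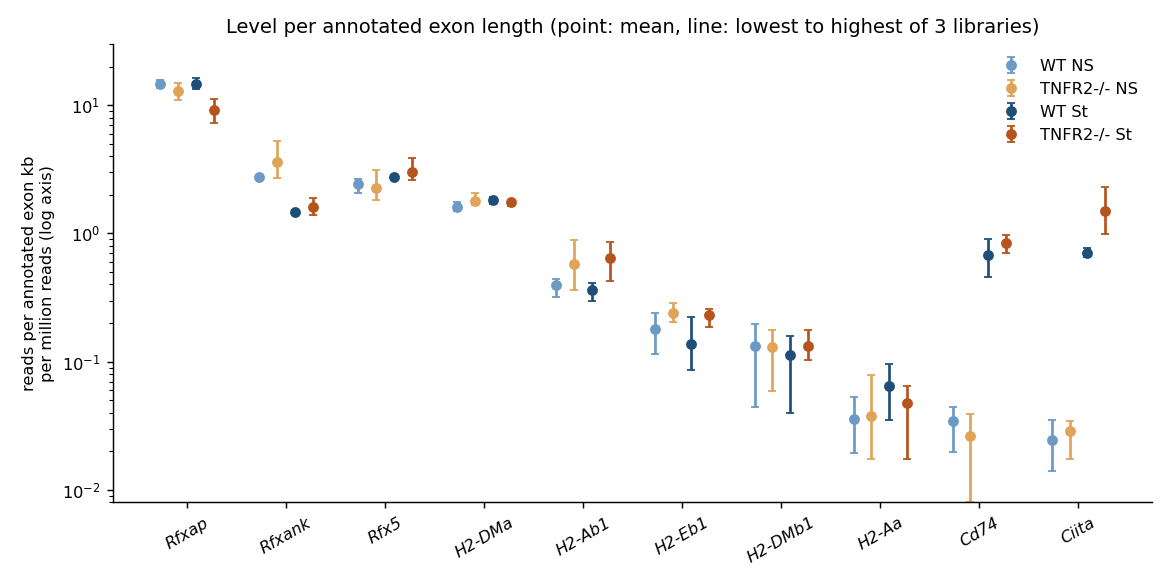
Level of each gene as reads per kb of annotated exon per 1000000 reads, on a log axis, in the 4 groups; points are means and lines run from the lowest to the highest of 3 libraries (the line that reaches the bottom of the plot includes a library with 0 reads of Cd74). Ciita and Cd74 are last among the NS groups and pass the MHC-II chains in the St groups, while Rfxap is the highest in every group.

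Ciita was induced by the cytokines in both genotypes. This gene (ENSMUSG00000022504, chr16:10480059-10528418 on GRCm38, plus strand) encodes the class II transactivator. Ciita had 7, 9 and 4 reads in the WT NS libraries (cultures 2, 3 and 4) and 219, 186 and 201 in the WT St libraries of the same cultures. In TNFR2-/- cells (cultures 2, 4 and 5) it had 5, 10 and 10 reads in NS and 338, 284 and 629 in St libraries. Every St library was thus above every NS library, and the TNFR2-/- St library of culture 5 was the highest of all. Mean levels rose from 0.0560 ± 0.0241 to 1.61 ± 0.130 FPKM in WT (SD, n = 3), a ratio of 28.7, and from 0.0659 ± 0.0227 to 3.40 ± 1.62 FPKM in TNFR2-/- cells, a ratio of 51.5. The ratio of summed reads per 1000000 reads was 29.2 in WT (95% exact Clopper-Pearson interval 18.7 to 48.1) and 51.0 in TNFR2-/- cells (34.4 to 79.1), where the interval covers counting error only. On the log2(FPKM + 0.5) scale of the test, which shrinks the fold of such low genes, Ciita rose by 1.92 (SE 0.22, adjusted p = 0.000145, limma) in WT and by 2.71 (SE 0.22, adjusted p = 8.26e-06, limma) in TNFR2-/- cells. On the recovered reads with voom the log2 fold changes were 4.84 and 5.56. Of the annotated exon bases of Ciita, 3.45% overlap Dexi on the other strand, which went from between 568 and 732 reads in NS to between 1527 and 2005 in St libraries. Its part in the rise of Ciita was not tested.

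Cd74 rose in both genotypes as well, at lower numbers of reads. It lies at chr18:60803848-60812652 (ENSMUSG00000024610, plus strand) and encodes the invariant chain. Cd74 had 1, 2 and 2 reads in WT NS and 46, 23 and 33 in WT St libraries, and 0, 2 and 2 reads in TNFR2-/- NS and 42, 36 and 47 in TNFR2-/- St libraries. Again no NS library reached any St library, and the St libraries of the genotypes overlapped. The mean rose from 0.0762 ± 0.0286 to 1.48 ± 0.501 FPKM in WT and from 0.0577 ± 0.0499 to 1.85 ± 0.293 FPKM in TNFR2-/- cells (SD, n = 3). Summed reads per 1000000 reads rose 19.7-fold in WT (interval 8.15 to 61.8) and 31.9-fold in TNFR2-/- cells (12.1 to 119). The log2 fold changes were 1.75 (SE 0.17, adjusted p = 4.97e-05, limma) and 2.07 (SE 0.17, adjusted p = 1.07e-05, limma).

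In WT cells 3 of the 10 members were called at an adjusted p of at most 0.05 after stimulation, Ciita and Cd74 upward and Rfxank downward, against 16.1% of all 18081 genes tested (7.70% upward and 8.36% downward). In TNFR2-/- cells 4 were called, the same 3 and Rfxap downward, against 26.0% of all genes (9.62% upward and 16.3% downward). With the study's further limits on fold change and level, set here at a mean of 1 FPKM, 2 members were called in each genotype, Ciita and Rfxank, and the call of Cd74 ended because its mean over all libraries lay below that level, against 7.53% of all genes in WT and 10.1% in TNFR2-/- cells. Ranges of NS and St libraries did not overlap for Ciita, Cd74 and Rfxank in either genotype, a property of 37.7% of all genes tested in WT and 37.3% in TNFR2-/- cells. The median log2 fold change of the members was 0.07 in WT and 0.07 in TNFR2-/- cells, beside -0.05 and -0.11 over all genes tested. All 10 members passed the filter of a mean of 0.1 FPKM over all libraries, but Ciita and Cd74 were below this level in both NS groups and passed only through the St groups, where they are high. The calls above came from a fit that did not use the pairing of NS and St libraries by culture. With the culture as a replicate block, 3 members were called in WT, against 31.6% of all genes. In TNFR2-/- cells 5 were called with the block, against 45.1%.

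**Figure D2:**
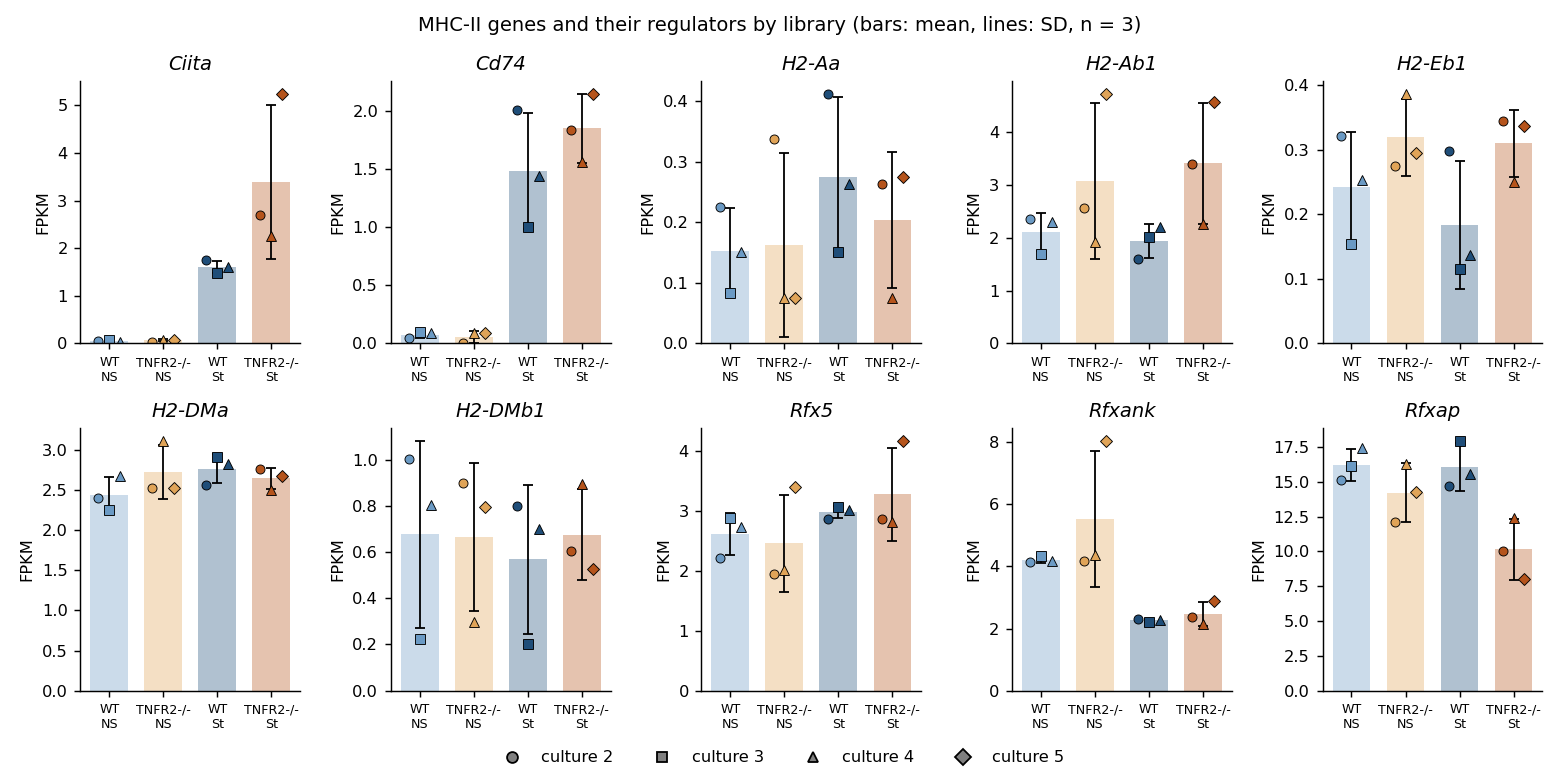
FPKM of the 10 genes in each of the 12 libraries; bars are group means, lines are SD (n = 3), and the shape of a point gives the culture. Ciita and Cd74 are near 0 in NS and higher in every St library, with Ciita at up to 5.25 FPKM, Rfxank is lower in every St library than in every NS library, and the chains of MHC-II show no such step.

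The MHC-II chains themselves showed no response that passed the test. H2-Aa encodes the α chain of the I-A molecule (chr17:34282744-34287823, minus strand), and H2-Ab1 (chr17:34257689-34269419, plus strand) encodes its β chain. H2-Aa had 6, 2 and 4 reads in WT NS and 11, 4 and 7 in WT St libraries, and 9, 2 and 2 in TNFR2-/- NS and 7, 2 and 7 in TNFR2-/- St libraries. It was higher after stimulation in 3 of 3 WT cultures, with a ratio of 1.79 in mean FPKM, but the groups overlapped and the log2 fold change was 0.24 (SE 0.19, adjusted p = 0.492, limma) in WT and 0.10 (SE 0.19, adjusted p = 0.748) in TNFR2-/- cells. With voom the value in WT was 0.73 (adjusted p = 0.526), and the counting interval of the ratio of reads ran from 0.837 to 3.91. H2-Ab1 was the most abundant of the chains per exon length. It had 34, 22 and 33 reads in WT NS, 23, 29 and 32 in WT St, 37, 28 and 69 in TNFR2-/- NS and 49, 33 and 63 in TNFR2-/- St libraries. The ranges before and after stimulation overlapped in both genotypes, with log2 fold changes of -0.10 (SE 0.29, adjusted p = 0.880) in WT and 0.17 (SE 0.29, adjusted p = 0.720) in TNFR2-/- cells.

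H2-Eb1, the β chain of the I-E molecule (chr17:34305867-34316674, plus strand), had 14, 6 and 11 reads in WT NS and 13, 5 and 6 in WT St libraries. In TNFR2-/- cells it had 12, 17 and 13 reads in NS and 15, 11 and 14 in St libraries. It was lower after stimulation in 3 of 3 WT cultures. The ranges overlapped within each genotype, and the log2 fold changes were -0.12 in WT (SE 0.13, adjusted p = 0.623) and -0.01 in TNFR2-/- cells (SE 0.13, adjusted p = 0.955). Neither was above the spread between replicates.

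The peptide loading pair H2-DM did not pass the test either. H2-DMa (chr17:34119541-34139101, plus strand) had between 138 and 183 reads in the WT NS group, between 176 and 199 in WT St, between 173 and 215 in TNFR2-/- NS and between 172 and 189 in TNFR2-/- St. These 12 values lay close together, and the log2 fold changes were 0.15 (SE 0.10, adjusted p = 0.406) in WT and -0.03 (SE 0.10, adjusted p = 0.860) in TNFR2-/- cells. Of its annotated exon bases, 10.4% overlap Brd2 on the other strand, which had between 8507 and 13820 reads per library. Strand is not stated for the counting, so reads of the overlapping stretch cannot be assigned to one gene. H2-DMb1 (chr17:34153072-34160230, plus strand), which shares 11.3% of its sequences of 100 bases with H2-DMb2, had 2 to 10 reads in every library and, like H2-Eb1, was not higher after stimulation in any WT culture, and its log2 fold changes were -0.12 and 0.04 (SE 0.33 each). Over the 3 chains and the H2-DM pair, 0 of 5 genes were called after stimulation in either genotype by limma, 0 at an unadjusted p under 0.05, and 0 with voom, where 16.1% of all genes were called in WT and 26.0% in TNFR2-/- cells by limma. Of the chains H2-DMb2, H2-Oa, H2-Ob and H2-Eb2, 0 of 4 passed the filter on low values.

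Promoters of 6 members could be read from RefSeq (GRCm38.p6), those of H2-Aa, H2-Eb1, H2-DMa, H2-DMb1, Rfx5 and Rfxank. The letters CTNGNAAC, from the core of the X box, and ATTGG, the Y box, are shown in capitals to mark the boxes described above. Binding to them was not measured. The letters were chosen after these promoters had been seen. The stretches of 140 bases that end just before the RefSeq start are at chr17:34287824-34287963 on the minus strand for H2-Aa and at chr17:34305727-34305866 on the plus strand for H2-Eb1.
H2-Aa: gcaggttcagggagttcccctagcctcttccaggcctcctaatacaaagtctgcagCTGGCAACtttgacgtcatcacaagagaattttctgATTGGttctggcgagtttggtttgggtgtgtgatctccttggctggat
H2-Eb1: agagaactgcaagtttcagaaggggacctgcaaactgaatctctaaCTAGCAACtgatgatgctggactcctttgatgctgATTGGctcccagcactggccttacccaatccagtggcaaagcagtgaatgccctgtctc

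The X letters began 84 bases before the start in H2-Aa and 94 in H2-Eb1, and 28 and 27 bases separated them from the Y letters. H2-DMb1 held the same pair (CTAGTAAC and ATTGG) with 28 bases between. The pair in this order, on the same strand and 15 to 35 bases apart, was counted in windows from 250 bases before to 50 after the start. It was found in 87 of 32544 such promoters (0.267%), whereas ATTGG on either strand was in 37.4% and CTNGNAAC in 13.2%. Because the letters were chosen with the member promoters in view, these shares do not test the finds in the members. The pair was not found in the windows of H2-DMa, Rfx5 and Rfxank. The 3 genes with the pair did not pass the test after stimulation at 3 h, and neither did H2-DMa and Rfx5, which lacked it. Promoters of Ciita, Cd74, H2-Ab1 and Rfxap were not among those read. A link between the pair and the response was therefore not tested.

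The 3 RFX subunits each had at least 168 reads in every library, and 1 of them passed the test in both genotypes. Rfxank, the ankyrin repeat subunit (chr8:70130794-70139154, minus strand), fell. It had 320, 301 and 322 reads in WT NS and 180, 171 and 176 in WT St libraries, and 324, 342 and 631 in TNFR2-/- NS and 185, 168 and 215 in TNFR2-/- St libraries. All St libraries were below all NS libraries, and the fall was seen in 6 of 6 cultures, with St to NS ratios from 0.360 to 0.572. Means fell from 4.21 ± 0.112 to 2.26 ± 0.0557 FPKM in WT and from 5.54 ± 2.19 to 2.48 ± 0.384 FPKM in TNFR2-/- cells (SD, n = 3). The log2 fold changes were -0.77 (SE 0.20, adjusted p = 0.0242, limma) and -0.97 (SE 0.20, adjusted p = 0.00519, limma). The call in WT was lost when any of the 6 WT libraries was left out (adjusted p from 0.0636 to 0.0738), which left the log2 fold change between -0.78 and -0.75, and without a filter (0.0527), and the call in TNFR2-/- cells was lost in a fit on only the libraries compared (adjusted p = 0.0562). Of the annotated exon bases of Rfxank, 33.8% overlap Nr2c2ap on the other strand, which went from between 100 and 127 reads to between 65 and 86 with stimulation in WT and from between 117 and 174 to between 65 and 73 in TNFR2-/- cells. Its part in the fall was not tested.

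Rfxap (chr3:54803115-54807791, minus strand), the RFX-associated protein, did not pass the test in WT cells and was lower in stimulated cells labelled TNFR2-/-. Its reads were 921, 879 and 1058 in WT NS and 897, 1094 and 949 in WT St libraries. They were 739, 1002 and 877 in TNFR2-/- NS and 612, 760 and 465 in TNFR2-/- St libraries, and culture 5 gave the lowest value. The log2 fold change with stimulation was -0.02 (SE 0.15, adjusted p = 0.974) in WT and -0.48 (SE 0.15, adjusted p = 0.0437, limma) in TNFR2-/- cells, where the ranges of NS and St libraries overlapped but each of the 3 cultures was lower after stimulation. That call was lost without any 1 of 9 libraries (adjusted p from 0.0543 to 0.136), among them the TNFR2-/- St library of culture 5 (log2 fold change -0.33, adjusted p = 0.133), as well as with library weights (-0.30, adjusted p = 0.147), with scaling by the median of ratios (-0.37, adjusted p = 0.158) or quantiles (adjusted p = 0.0915), without a filter (0.0746) and in a fit on only the libraries compared (0.143). The median over all genes in this comparison was -0.11.

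Rfx5, the DNA-binding subunit (chr3:94954075-94961561, plus strand), did not pass the test. It had 339, 394 and 416 reads in WT NS and 438, 468 and 462 in WT St libraries, and 299, 311 and 524 in TNFR2-/- NS and 436, 432 and 609 in TNFR2-/- St libraries. It was higher after stimulation in 6 of 6 cultures, by 1.06- to 1.46-fold, while culture 5 was above the other TNFR2-/- cultures both before and after. The log2 fold change was 0.17 (SE 0.19, adjusted p = 0.657) in WT and 0.37 (SE 0.19, adjusted p = 0.193) in TNFR2-/- cells. With the culture as a replicate block, the value in TNFR2-/- cells passed the test (0.37, adjusted p = 0.0100, limma) and became the 5th call there, where 45.1% of all genes were called with the block (31.6% in WT). Without the TNFR2-/- NS library of culture 5 it passed as well (0.58, adjusted p = 0.0286). Of its annotated exon bases 26.8% overlap B230398E01Rik on the other strand, which had at most 5 reads per library.

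**Figure D3:**
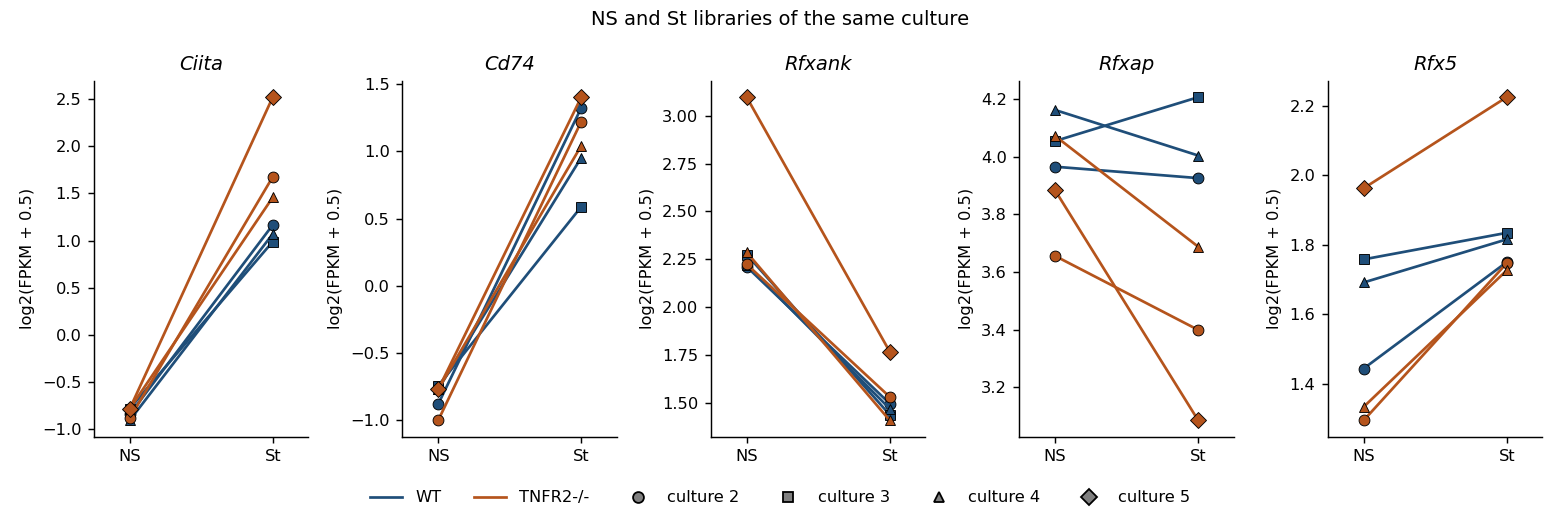
Level of Ciita, Cd74, Rfxank, Rfxap and Rfx5 as log2(FPKM + 0.5) in the NS and St library of each culture, joined by a line; color gives the genotype and shape the culture. All 6 lines rise for Ciita, Cd74 and Rfx5 and fall for Rfxank, while those of Rfxap fall in the 3 TNFR2-/- cultures and go both ways in WT.

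The steps upstream of Ciita were induced in both genotypes. Of 8 genes listed as inducers of Ciita or their brakes, 7 were higher in each genotype. Called upward were 7 in WT and 6 in TNFR2-/- cells, against 7.70% and 9.62% of all genes tested. The median log2 fold change of the 8 was 1.30 in WT and 1.40 in TNFR2-/- cells. Irf1, a transcription factor that binds the IFNγ-responsive promoter of Ciita, rose 155-fold in mean FPKM in WT and 104-fold in TNFR2-/- cells (log2 fold change 7.28 ± 0.13 and 6.69 ± 0.13 SE). Socs1, which inhibits JAK kinases, rose 64.3- and 101-fold. The receptor chain Ifngr2 and the kinases Jak1 and Jak2 rose between 2.12- and 3.22-fold in both genotypes. Usf1, which acts at the same promoter, rose 1.33-fold in WT (log2 fold change 0.40, adjusted p = 0.00581, limma) and had a log2 fold change of 0.20 in TNFR2-/- cells (adjusted p = 0.0978). Ifngr1, the ligand-binding chain of the receptor, did not pass the test in WT (-0.05, adjusted p = 0.861) or in TNFR2-/- cells (-0.37, adjusted p = 0.0720).

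The class I side gave a comparison within the same libraries. Nlrc5, a relative of CIITA that drives MHC class I genes, rose from 0.988 to 444 FPKM in WT, a ratio of 449, and from 2.22 to 416 FPKM in TNFR2-/- cells, a ratio of 187. The class I heavy chains H2-K1 and H2-D1 and their light chain B2m rose 3.80-, 5.01- and 3.98-fold in WT and 3.89-, 7.36- and 4.21-fold in TNFR2-/- cells. In each genotype 4 of 4 genes of this list were called upward, against 7.70% of all genes tested in WT and 9.62% in TNFR2-/- cells. Of 8 listed X box, Y box and coactivator factors, 1 was called in WT, against 16.1% of all genes tested. It was Nfyb, a subunit of NF-Y, which rose 2.85-fold. In TNFR2-/- cells Nfyb rose 2.78-fold and the subunit Nfyc fell (log2 fold change -0.29, adjusted p = 0.0143, limma).

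**Figure D4:**
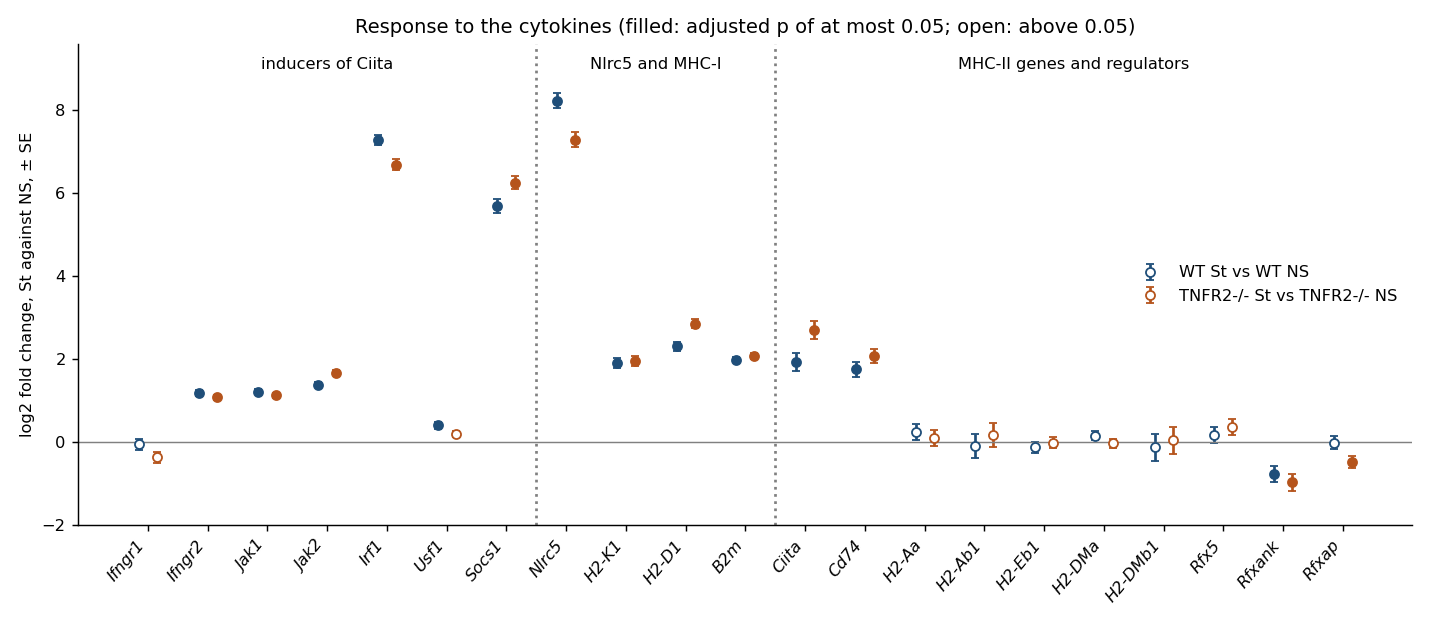
Log2 fold change of St against NS, on the log2(FPKM + 0.5) scale with its SE, in WT and TNFR2-/- cells for 7 inducers of Ciita, for Nlrc5 with MHC-I genes, and for the 10 MHC-II genes and regulators. The class I genes rose in both genotypes, whereas in the MHC-II group Ciita and Cd74 rose and no chain passed the test. This scale shrinks the folds of low genes such as H2-Aa and H2-Eb1, which had few reads.

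Genes that act with MHC-II on the way to the T cell were mixed. Of 9 listed genes of endosomal processing and turnover 6 passed the filter, and the cathepsin Ctss, which trims CD74 in dendritic cells, was not among them. None of the 6 was called in WT by limma, against 16.1% of all genes tested, with 0 at an unadjusted p under 0.05 and 0 calls with voom. Sppl2a, a protease that clears the last piece of CD74, rose in TNFR2-/- cells (log2 fold change 0.23, adjusted p = 0.0432, limma). Of 4 costimulatory partners, Cd40 rose 91.1- and 81.7-fold and Icosl 4.23- and 3.09-fold in WT and TNFR2-/- cells. Cd80 did not pass the test (log2 fold change 0.25, adjusted p = 0.539 in WT and 0.32, adjusted p = 0.324 in TNFR2-/- cells), and Cd86 was below the filter.

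Markers of microglia, dendritic cells and B cells were examined in the same libraries. Of 15 microglia markers, Fcrls was at 0 in all libraries and Aif1, Cx3cr1, C1qa, C1qb, C1qc, Ptprc and Tyrobp had at most 2 reads in any library. The list summed to between 18.4 and 20.2 reads per 1000000 reads in WT NS, 17.6 and 19.5 in WT St, 15.2 and 18.2 in TNFR2-/- NS and 19.9 and 21.9 in TNFR2-/- St libraries. Cd68 of that list rose in TNFR2-/- cells (log2 fold change 0.92, adjusted p = 0.00297). Of 8 dendritic and B cell markers, Ms4a1 was at 0 in all libraries and Itgax had at most 2 reads, but the sum of the list was higher after stimulation, going from between 13.7 and 17.1 to between 30.1 and 33.3 reads per 1000000 reads in WT and from between 12.5 and 14.1 to between 30.3 and 34.5 in TNFR2-/- cells. The members of that list that rose were Batf3, a transcription factor (log2 fold changes 1.98 and 2.07), and Zbtb46 (0.37 and 0.50), named here after their values were seen. Cd79a of that list had 5 to 80 reads per library. It was lower in TNFR2-/- NS than in WT NS cells (log2 fold change -2.12, adjusted p = 0.0425, limma). The part of such cells in the rise of Ciita and Cd74 was not tested. In bulk cultures, fewer cells of a type and less RNA per cell cannot be told apart.

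Between genotypes, no member passed the test before stimulation. In TNFR2-/- NS against WT NS, 0 of 10 members were called by limma, 0 had an unadjusted p under 0.05 and 0 were called with voom, against 10.9% of all genes tested (6.11% higher and 4.75% lower, and 2.90% with the further limits on fold change and level), and the ranges of the groups overlapped for all 10, against 34.2% of all genes whose ranges did not. H2-Ab1 had a log2 fold change of 0.38 (SE 0.29, adjusted p = 0.405), which ran from 0.067 to 0.62 when 1 library was left out. Among the genes upstream, Irf1 was higher in NS cells labelled TNFR2-/- (log2 fold change 0.66, adjusted p = 0.0188) and so was Nlrc5 (0.85, adjusted p = 0.0242, not called with voom), while Jak2 was lower (-0.25, adjusted p = 0.0353). The coactivators Ep300 (-0.48, adjusted p = 0.0148) and Crebbp (-0.37, adjusted p = 0.0339) and the X box factor Creb1 (-0.32, adjusted p = 0.0210) were lower too. Ifi30, the thiol reductase of antigen processing, was lower (-1.21, adjusted p = 0.0370), and the protease Lgmn was higher (0.38, adjusted p = 0.0212).

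After stimulation, 1 of 10 members differed between the genotypes, against 5.45% of all genes (2.70% higher and 2.75% lower, and 1.80% with the further limits, under which 1 member was called too). Rfxap was lower in St cells labelled TNFR2-/-, at 10.1 ± 2.20 against 16.1 ± 1.69 FPKM (SD, n = 3), with a log2 fold change of -0.65 (SE 0.15, adjusted p = 0.0416, limma). This call is close to the threshold. It was lost without any 1 of 8 libraries, each of the 6 WT libraries and the TNFR2-/- St libraries of cultures 2 and 5, with adjusted p values from 0.0551 to 0.152, and without the TNFR2-/- St library of culture 5 the log2 fold change was -0.50 (adjusted p = 0.124).

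Ciita was higher in each St library labelled TNFR2-/- (284 to 629 reads) than in each WT St library (186 to 219 reads), with a ratio of 2.11 in mean FPKM. The log2 fold change was 0.81 (SE 0.22) with an adjusted p of 0.0562 in limma, which did not pass the test. It passed without the TNFR2-/- St library of culture 4 (1.03, adjusted p = 0.0337) and with weights for each library (0.64, adjusted p = 0.0305). Without the TNFR2-/- St library of culture 5 it was 0.49 (adjusted p = 0.0792), and with voom 0.97 (adjusted p = 0.0512). Cd74 did not pass the test in this comparison, with a log2 fold change of 0.27 (SE 0.17, adjusted p = 0.350) and overlapping ranges. H2-Ab1 had separate ranges, at 33 to 63 reads in TNFR2-/- St against 23 to 32 in WT St libraries, but its log2 fold change of 0.65 (SE 0.29) had an adjusted p of 0.179. Ranges did not overlap for these 3 members (Ciita, H2-Ab1 and Rfxap), a property of 32.7% of all genes tested in this comparison.

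Among the inducers of Ciita no gene passed the test between genotypes in St cells. Of 8 genes 4 were higher and 4 lower. By limma 0 were called, against 5.45% of all genes tested, 1 had an unadjusted p under 0.05, and 0 were called with voom. Irf1 had a log2 fold change of 0.07 (SE 0.13). H2-D1 was higher in St cells labelled TNFR2-/- (0.53, adjusted p = 0.0298), and Crebbp (-0.39, adjusted p = 0.0433) and Ifi30 (-1.45, adjusted p = 0.0329) were lower. Astrocyte markers moved with the genotype as well. Of the 6 markers of the list, 2 were called higher in NS cells labelled TNFR2-/- and 2 in St cells, against 6.11% and 2.70% of all genes tested. All 6 were higher in the libraries labelled TNFR2-/-, and none was at 0. Their sum was between 1557 and 1617 reads per 1000000 reads in WT St and between 2502 and 3843 in TNFR2-/- St libraries, and culture 5 was the highest both before and after stimulation, as it was for Ciita and Rfx5 after stimulation. Of the 7 OPC markers 3 were higher and 4 lower in St cells labelled TNFR2-/-. Pdgfra (-0.60, adjusted p = 0.0488, limma) and Lhfpl3 (-0.59, adjusted p = 0.0388, limma) were the 2 called, both lower, against 2.75% of all genes tested. The sums of the 7 overlapped, at 6893 to 8021 reads per 1000000 reads in WT St and 7314 to 7808 in TNFR2-/- St libraries. The sum of 4 markers of mural cells and fibroblasts was between 10.5 and 32.5 reads per 1000000 reads in WT St and between 4.04 and 7.27 in TNFR2-/- St libraries. The part of these cells in the differences of Ciita and Rfxap was not tested.

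**Figure D5:**
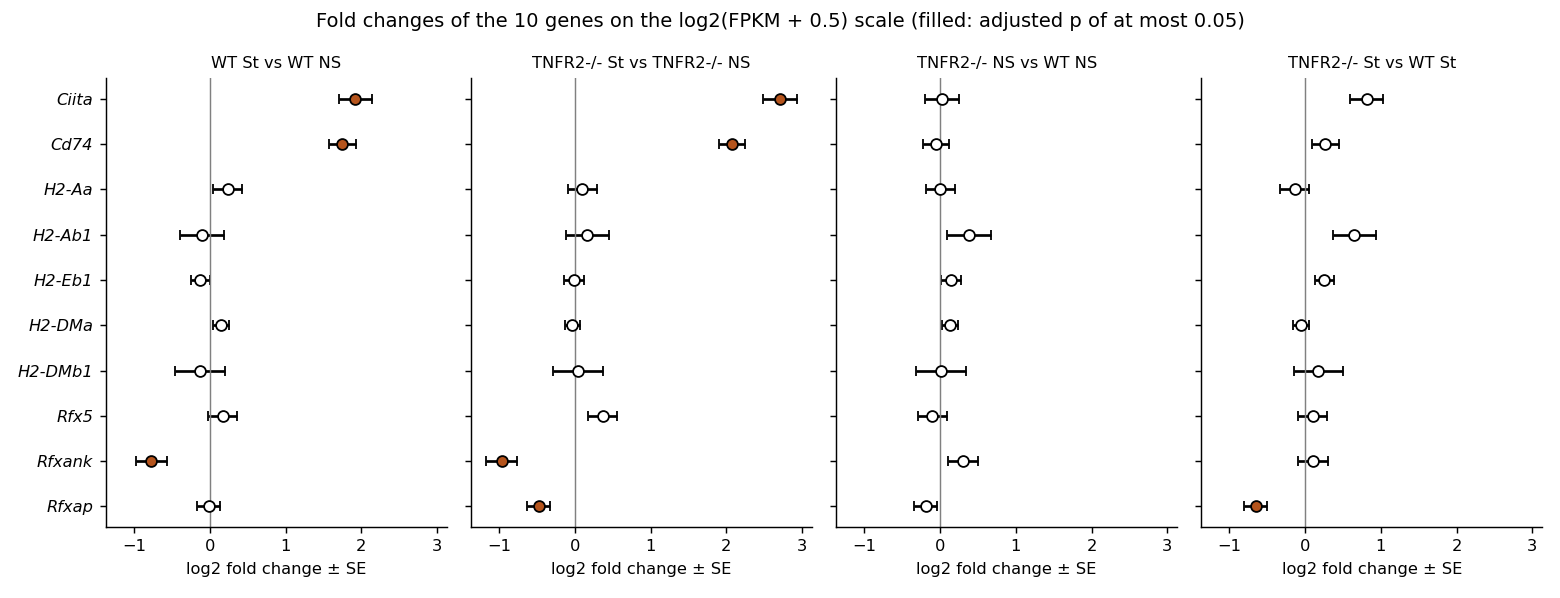
Log2 fold change on the log2(FPKM + 0.5) scale with its SE for the 10 genes in 4 comparisons, where filled points had an adjusted p of at most 0.05. Ciita and Cd74 lie to the right and Rfxank to the left with stimulation in both genotypes, no point is filled for NS cells between genotypes, and Rfxap is the only filled point in St cells between genotypes.

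Whether the response itself differed was tested as the interaction of genotype and stimulation. By limma 0 of 10 members were called, against 0.00553% of all genes (1 gene), 1 had an unadjusted p under 0.05, and 0 were called with voom. That 1 member was Ciita, whose log2 fold change was 0.79 larger in TNFR2-/- cells (SE 0.31, adjusted p = 0.580). With voom the difference for Ciita was 0.72 (SE 0.92, adjusted p = 0.924). On the log2(FPKM + 0.5) scale, Ciita rose by 2.01, 1.77 and 1.98 in the WT cultures. It rose by 2.57, 2.25 and 3.31 in the TNFR2-/- cultures, each more than any WT culture on this scale. As St to NS ratios without the pseudocount, the genotypes overlapped. TNFR2-/- culture 4 was at 28.4, below WT culture 2 at 31.2. TNFR2-/- cultures 2 and 5, at 67.8 and 66.5, were above every WT culture. An exact permutation test (two-sided) of the 3 against 3 changes on the log2(FPKM + 0.5) scale gave p = 0.1, which is the smallest p it can give. The changes of Rfxap were also apart (0.15 to -0.16 in WT and -0.26 to -0.80 in TNFR2-/- cells), with a difference of -0.46 (SE 0.22, adjusted p = 0.641) and an exact permutation p = 0.1. For the other 8 members the same exact test gave p values from 0.2 to 1.

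Over the 12 libraries, the genes whose log2(FPKM + 0.5) was most like that of Ciita among 13553 genes were Gm12188 (Pearson r = 0.998), Lcn2 (0.996), Steap4 (0.995), C1ra (0.995) and Ifi203 (0.994). These values are a description, since the libraries share the step from NS to St. Lcn2, which encodes the secreted lipocalin-2, was between 11.7 and 16.0 FPKM in WT St and between 18.2 and 71.3 FPKM in TNFR2-/- St libraries, and at most 0.156 FPKM in NS libraries. Among the members Cd74 was most like Ciita (0.974), followed by Rfx5 (0.64), while Rfxank (-0.78) and Rfxap (-0.62) went the opposite way. H2-Aa, H2-DMa and H2-Ab1 were at 0.37, 0.24 and 0.24, and H2-Eb1 and H2-DMb1 at -0.03 and -0.05.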

How the data were processed

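RNAseq libraries of WT and TNFR2-/- OPCs were analyzed from the tables as deposited, which hold FPKM per gene symbol made by the authors. Reads had been trimmed with Trim Galore, aligned to GRCm38 and counted with STAR, and the authors used EdgeR for their own calls; the methods name a BGISeq-500 platform and the labels Illumina protocols. Of 45792 entries 229 sharing a symbol were left out. Whole reads could be recovered for 26635 of 26636 genes above 0 in at least 2 libraries (tolerance 0.0001 reads), and library totals were between 26886878 and 30335265. The test was run in limma 3.58.1 (R 4.3.3) on log2(FPKM + 0.5), with 4 group means, all 12 libraries and an empirical Bayes trend, over the 18081 genes whose mean reached 0.1 FPKM, with Benjamini-Hochberg adjustment and calls at an adjusted p of at most 0.05, the study's rule. The pseudocount shrinks the folds of low genes. The procedure was tested on simulated data. The numbers of the labels were checked for pairing over 13554 genes. After group means were removed, NS and St libraries of the same genotype and number correlated at 0.34 to 0.65 (6 pairs) and those of other numbers at -0.45 to 0.09 (12 pairs), whereas the same number across genotypes gave -0.08 to 0.20 (8 pairs), so a number marks a culture of 1 genotype. Nothing states that cultures came from separate litters, so p values measure the spread between these samples. Exon lengths, positions and overlaps came from GENCODE M21 (GRCm38), and promoters from RefSeq, 250 bases before to 50 after the start. Members, gene lists and tests were chosen with earlier results of these data known. The genes named were all members, all inducers of Ciita, Nlrc5 with MHC-I, other list genes that were called, and the 5 genes most like Ciita; a few genes of the lists are not reported here. Alternatives were other pseudocounts (0.1 and 1), filters (none and 1 FPKM), scalings, thresholds, limma without trend, only the libraries compared, library weights, a replicate block, voom on recovered reads and each library left out. Intervals are exact binomial at 95%. Python 3.11.15, pandas 2.3.3, scipy 1.17.1 and matplotlib 3.10.9 were used.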

Additional observations from a re-analysis of the deposited data

How the results depend on the processing

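Of 1120 log2 fold changes of the members under the alternatives other than the further limits on fold change and level, 1038 kept their direction and their side of the threshold. With the replicate block within genotype, 49 of 50 did, the exception being Rfx5 in TNFR2-/- cells given above, and the number of members called there was 5. Ciita and Cd74 were called with stimulation in both genotypes under all of these, but the filter at a mean of 1 FPKM left Cd74 untested, and the further limits ended its call in both genotypes. The number of members called in TNFR2-/- St vs TNFR2-/- NS was 2 with the further limits on fold change and level, 2 with only the libraries compared and 3 to 4 when libraries were left out. In WT St vs WT NS it was 2 to 3. In TNFR2-/- St vs WT St it was 0 without a filter, with median-of-ratios scaling, without the trend and with only the libraries compared, 2 with weights for each library, and 0 to 2 when libraries were left out. In TNFR2-/- NS vs WT NS and in the interaction it stayed at 0.

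Directions turned only for values that did not pass the test. In TNFR2-/- NS vs WT NS, H2-Aa was -0.058 with a pseudocount of 0.1, -0.0070 with median-of-ratios scaling, -0.0016 with quantile normalization and -0.18 with voom, and H2-DMb1 was -0.014 and -0.039 with the 2 scalings. In WT St vs WT NS, Rfxap was 0.041 and 0.0042 with them. In TNFR2-/- St vs TNFR2-/- NS, median-of-ratios scaling gave 0.029 for H2-Eb1 and 0.066 for H2-DMa, and library weights gave -0.11 for H2-Aa, 0.0079 for H2-Eb1 and -0.037 for H2-DMb1. With 1 library left out, log2 fold changes in TNFR2-/- NS vs WT NS ran from -0.18 to 0.092 for H2-Aa, -0.31 to 0.26 for H2-DMb1, -0.0057 to 0.059 for Ciita, -0.091 to 0.027 for Cd74 and -0.32 to 0.017 for Rfx5. In WT St vs WT NS they ran from -0.44 to 0.15 for H2-DMb1, -0.096 to 0.045 for Rfxap and -0.22 to 0.0057 for H2-Ab1. In TNFR2-/- St vs TNFR2-/- NS they ran from -0.076 to 0.48 for H2-Ab1, -0.054 to 0.044 for H2-Eb1, -0.075 to 0.054 for H2-DMa and -0.21 to 0.20 for H2-DMb1. In TNFR2-/- St vs WT St they ran from -0.10 to 0.34 for H2-DMb1, -0.26 to 0.0026 for H2-Aa and -0.063 to 0.19 for Rfx5. In the interaction they ran from -0.11 to 0.48 for H2-DMb1, -0.26 to 0.042 for H2-Aa and -0.35 to 0.082 for Rfxank. The cause was not tested.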
